A study of Mus musculus with 27 samples.

Results

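Among 27 prostate tumours of a mouse cross, 6 tumours formed a pair of small classes that carried epithelial genes at high level. The Pkd1l3-high class held the 3 tumours P569, P803 and P1469, and the Pax3-high class held the 3 tumours P471, P966 and P1276. Members were chosen by the level of a single gene each, Pkd1l3 or Pax3 over 7 on the log2 scale, and the remaining 21 tumours exceeded 7 for neither gene. The lowest Pkd1l3 value inside the first class was 9.00 (P1469) and the highest outside it 5.59 (P217). The lowest Pax3 value inside the second class was 8.09 (P471) and the highest outside it 5.47 (P311). Because both classes were selected on values of these same arrays, every value that follows describes these 6 tumours and no test was made between them.

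All 27 animals were transgene-positive F2 males from a cross of C57BL/6-Tg(TRAMP)8247Ng/J with PWK/PhJ mice, bred from Tg- sires and Tg+ dames. There was no transgene-negative or drug-treated group. The labels state that tumours were assessed at 30 weeks, or before that at a humane endpoint. Each tumour, taken from a different animal, was snap frozen and measured on 1 array. In TRAMP mice the probasin promoter, which is active in prostate epithelium, drives the early genes of SV40, so the model starts from cells that use this promoter. Both classes and the other 21 tumours share this transgene, sex and cross, and differ in the alleles that each F2 animal inherited.

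TRAMP tumours include glandular epithelial lesions and poorly differentiated neuroendocrine ones, and epithelial cells are recognised by keratins, E-cadherin and junction proteins. Neuroendocrine cells store peptide hormones and amines in granules filled with chromogranins and secretogranins, and cut prohormones with convertases. Pkd1l3 encodes a polycystin-like protein that pairs with the channel Pkd2l1 in sour-sensing taste cells, and Pax3 encodes a paired-box transcription factor of neural crest and muscle precursors.

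The arrays had medians between 5.67 and 5.82 log2. Values under the median of all values (5.75) were taken as close to background. This level is a convention, since no detection calls were available and values reached down to 1.68. A difference in which a class lies under that level may be limited by the background and can understate the change. In whole tumours, fewer cells of a type and less RNA per cell cannot be told apart. Y-linked genes stood apart in both classes. Eif2s3y was at 5.86, 9.04 and 8.54 log2 in P569, P803 and P1469 and at 9.68, 6.96 and 8.90 in P471, P966 and P1276, against 7.64 to 9.61 (median 9.27) in the other 21. Kdm5d was also low in P569 (4.63) and P966 (5.75), and Uty was low in P569 (5.14), P966 (6.09) and P1469 (4.78). Counts are therefore also given without P569 and P966. In the sentences below, 3 values of the Pkd1l3-high class are in the order P569, P803, P1469 and 3 values of the Pax3-high class in the order P471, P966, P1276, all on the log2 scale.

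The other 4 marker genes did not follow one pattern. Gpa33, a surface glycoprotein of intestinal epithelium, was at 5.78, 5.95 and 6.06 in the Pkd1l3-high tumours, 9.60, 9.84 and 9.48 in the Pax3-high tumours and 5.42 to 6.33 (median 5.72) in the other 21. Akp3, an intestinal alkaline phosphatase, was at 4.23, 3.96 and 4.27, 8.05, 8.85 and 8.84 and 3.80 to 5.10 (median 4.13) in the same order of groups. Both genes were high in the 3 Pax3-high tumours and nowhere else. Ahsg, which encodes the liver plasma protein fetuin-A, was at 8.19, 5.07 and 8.39 in the Pkd1l3-high tumours, 8.66, 8.46 and 9.29 in the Pax3-high tumours and 4.50 to 5.56 (median 5.18) in the other 21, so that 5 of the 6 tumours had it and P803 did not. Foxa1, a pioneer factor of prostate epithelium, was at 10.56, 10.15 and 11.05 in the Pkd1l3-high tumours and 7.20, 8.10 and 7.87 in the Pax3-high tumours, against 8.91 to 11.72 (median 10.89) in the other 21. The Pax3-high tumours thus had the lowest Foxa1 of all 27, while the Pkd1l3-high tumours lay within the range of the rest. Pkd1l3 was at 9.63, 9.73 and 9.00, 4.76, 4.78 and 5.21 and 4.78 to 5.59 (median 5.02) in the same order of groups, and Pax3 at 5.00, 4.81 and 5.07, 8.09, 8.69 and 8.67 and 4.78 to 5.47 (median 5.04). Each class lay at the level of the other 21 for the gene that chose the other class.

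**Figure D1:**
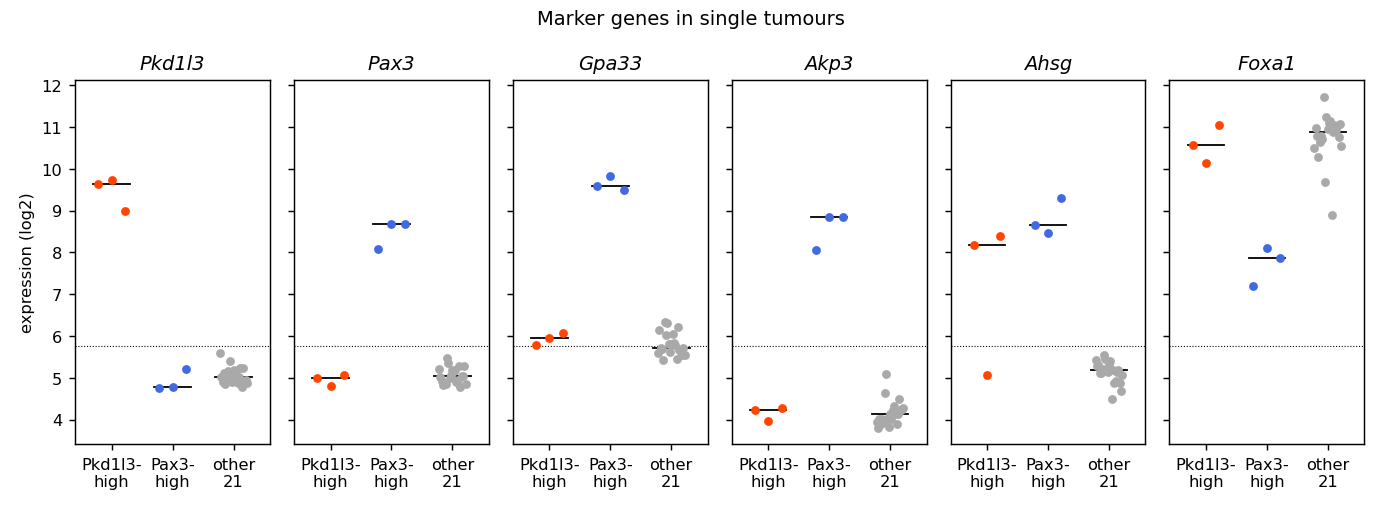
Expression (log2, vertical axis) of the 6 marker genes in single tumours, with the Pkd1l3-high class, the Pax3-high class and the other 21 tumours from left to right. Each point is 1 tumour, horizontal bars are medians and the dotted line is the median of all values (5.75). Foxa1 is lowest in the Pax3-high tumours, and Ahsg is high in 5 of the 6.

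Over 22180 genes the 6 tumours paired within their classes. Pearson's r between arrays was 0.965 to 0.971 among the Pkd1l3-high tumours, 0.964 to 0.977 among the Pax3-high tumours and 0.901 to 0.936 for the 9 pairs across the classes, where the points are genes and share the same arrays. For every one of the 6, the nearest 2 of all other arrays were its own class mates. The mean absolute difference per gene was 0.34 to 0.37 log2 within Pkd1l3-high pairs and 0.32 to 0.38 within Pax3-high pairs, against 0.49 to 0.60 across the classes, where 696 to 1256 genes differed at least 4-fold. Outside the classes, the nearest array to all 3 Pax3-high tumours was P219 (r = 0.929 to 0.934), and that to the Pkd1l3-high tumours was P500 or P503 (0.944 to 0.953).

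Genes that differed were counted by a rule of size, a difference of class means of at least 2 log2 (4-fold) with no overlap of the 3 and 3 values. By this rule 353 genes were higher in the Pkd1l3-high tumours (1.59% of all genes) and 308 were lower (1.39%). Without the genes that chose the classes the counts were 352 and 307. Without P569 and P966 the counts were 372 and 361. Shared genes were those for which all 6 tumours lay at least 2 log2 from the median of the other 21 on the same side: 45 genes were high in all 6 (0.203%) and 27 low in all 6 (0.122%). Since the classes were formed on the same arrays, these shares serve as a scale for the counts of members below and are no result themselves. The median difference over all genes was 0.04 log2, with 12182 genes above 0 and 9998 below.

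**Figure D2:**
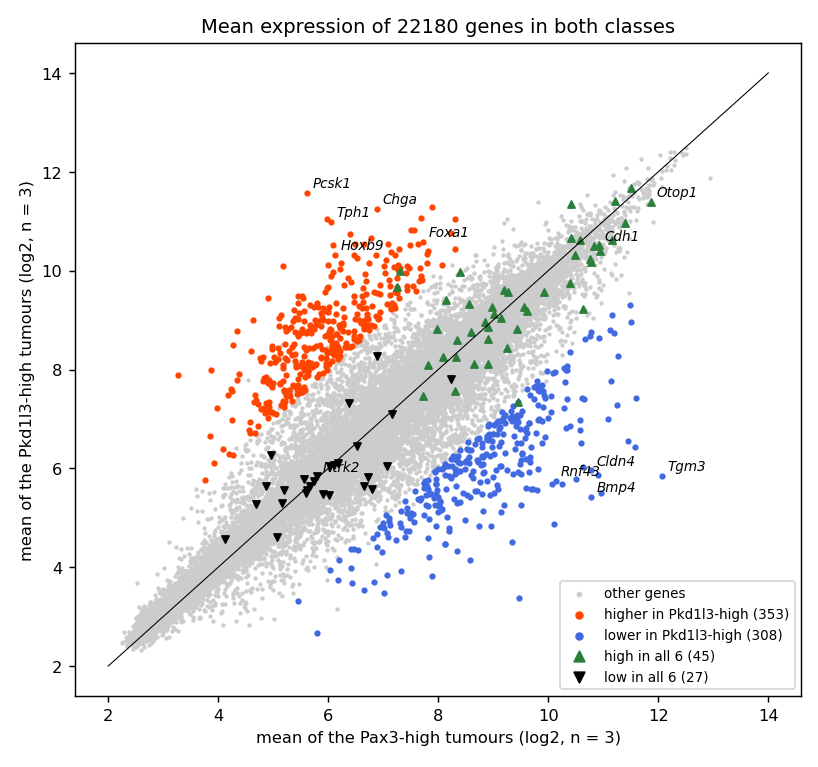
Mean expression of each of 22180 genes in the Pkd1l3-high tumours (vertical axis, log2, n = 3) against the Pax3-high tumours (horizontal axis, log2, n = 3), with the line of equal values. Orange and blue points are the 353 and 308 genes that differed by the rule of size, green triangles the 45 genes high in all 6 tumours and black triangles the 27 low in all 6. Cdh1 and Otop1 lie close to the line.

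Many genes of the epithelial lists were high in both classes. Desmoplakin (Dsp), which anchors keratin filaments at desmosomes, had the largest margin. It was at 10.25, 10.41 and 10.29 in the Pkd1l3-high tumours, 10.16, 10.64 and 10.66 in the Pax3-high tumours and 4.78 to 10.02 (median 5.52) in the other 21. Cdh1, the gene of E-cadherin, was at 10.51, 10.46 and 10.58, 10.54, 10.94 and 11.31 and 5.71 to 11.51 (median 6.50) in the same order of groups, and the keratin gene Krt8 at 11.68, 11.71 and 11.64, 11.11, 11.72 and 11.68 and 6.57 to 11.46 (median 7.36). For these genes the classes differed by -0.17, -0.41 and 0.18 log2, so the classes lay close together and far from the median of the rest. Of the 14 measured luminal genes 8 were high in all 6, among them Krt18, Krt19, Krt7, Epcam and Cldn7. So were 10 of 21 junction and desmosome genes (Ocln, Pkp2, F11r, Marveld2, Perp, Dsg2 and others) and 9 of 16 epithelial regulators. Of these, Dsg2 was also lower in the Pkd1l3-high class by the rule. The list means were somewhat lower in the Pkd1l3-high tumours, without overlap. They were 8.85 to 9.12 against 9.24 to 9.86 for luminal genes and 8.07 to 8.23 against 8.61 to 8.93 for junction genes. For the regulators they were 8.31 to 8.33 against 8.40 to 8.88. The regulators included the splicing factor genes Esrp1 (9.13, 8.37 and 9.07 and 8.87, 8.93 and 8.91, against 4.12 to 8.62 (median 4.60) in the other 21) and Esrp2, the transcription factor gene Grhl2 (8.46, 7.54 and 8.26 and 8.26, 7.61 and 7.55, against 4.84 to 8.83 (median 5.36)) and the adaptor gene Ap1m2. Membrane proteases and their inhibitors belonged to it as well, with St14, the gene of matriptase, at 10.46, 10.57 and 10.15 and 10.58, 11.28 and 10.96 (other 21: 5.69 to 10.64 (median 6.44)) and its inhibitors Spint1 and Spint2 high in all 6. Rab25, a small GTPase of epithelial recycling endosomes, was at 10.31, 10.52 and 10.66 and 10.44, 11.17 and 10.85, against 5.22 to 10.87 (median 6.11) in the other 21. The epithelial transcription factor gene Elf3 was at 9.15, 8.96 and 9.56 in the Pkd1l3-high tumours and 10.19, 10.87 and 10.84 in the Pax3-high tumours, against 4.64 to 9.49 (median 5.74). Also among the 15 leading shared genes were Crybg1, Tmc4 and the phospholipid flippase gene Atp8b1.

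A proton channel gene and a taste-cell channel gene stood among these epithelial genes. Otop1, the proton channel of sour-sensing taste cells, was at 11.12, 11.59 and 11.44 in the Pkd1l3-high tumours and 11.71, 11.89 and 11.98 in the Pax3-high tumours. The other 21 lay at 5.97 to 10.37 (median 7.34), the highest of them P500, so that all 6 lay above every other tumour. Pkd2l1, the channel partner of Pkd1l3, was at 10.25, 9.84 and 9.87 and 7.04, 7.79 and 7.06, against 4.43 to 7.97 (median 4.84) in the other 21, and was thus high in both classes and higher in the Pkd1l3-high class by 2.69 log2. Tmem30b, a flippase subunit gene, was at 11.09, 11.22 and 11.75 and 9.97, 10.81 and 10.45, against 5.05 to 10.85 (median 6.67). The shared high genes also occurred outside the 6: of the 45, 39 were at least 2 log2 above the same median in P425 and 34 in P219. In Dsp, for example, P425 was at 10.02 and P219 at 9.27. Otop1 was at 9.36 in P425 and 8.33 in P219, below all 6.

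**Figure D3:**
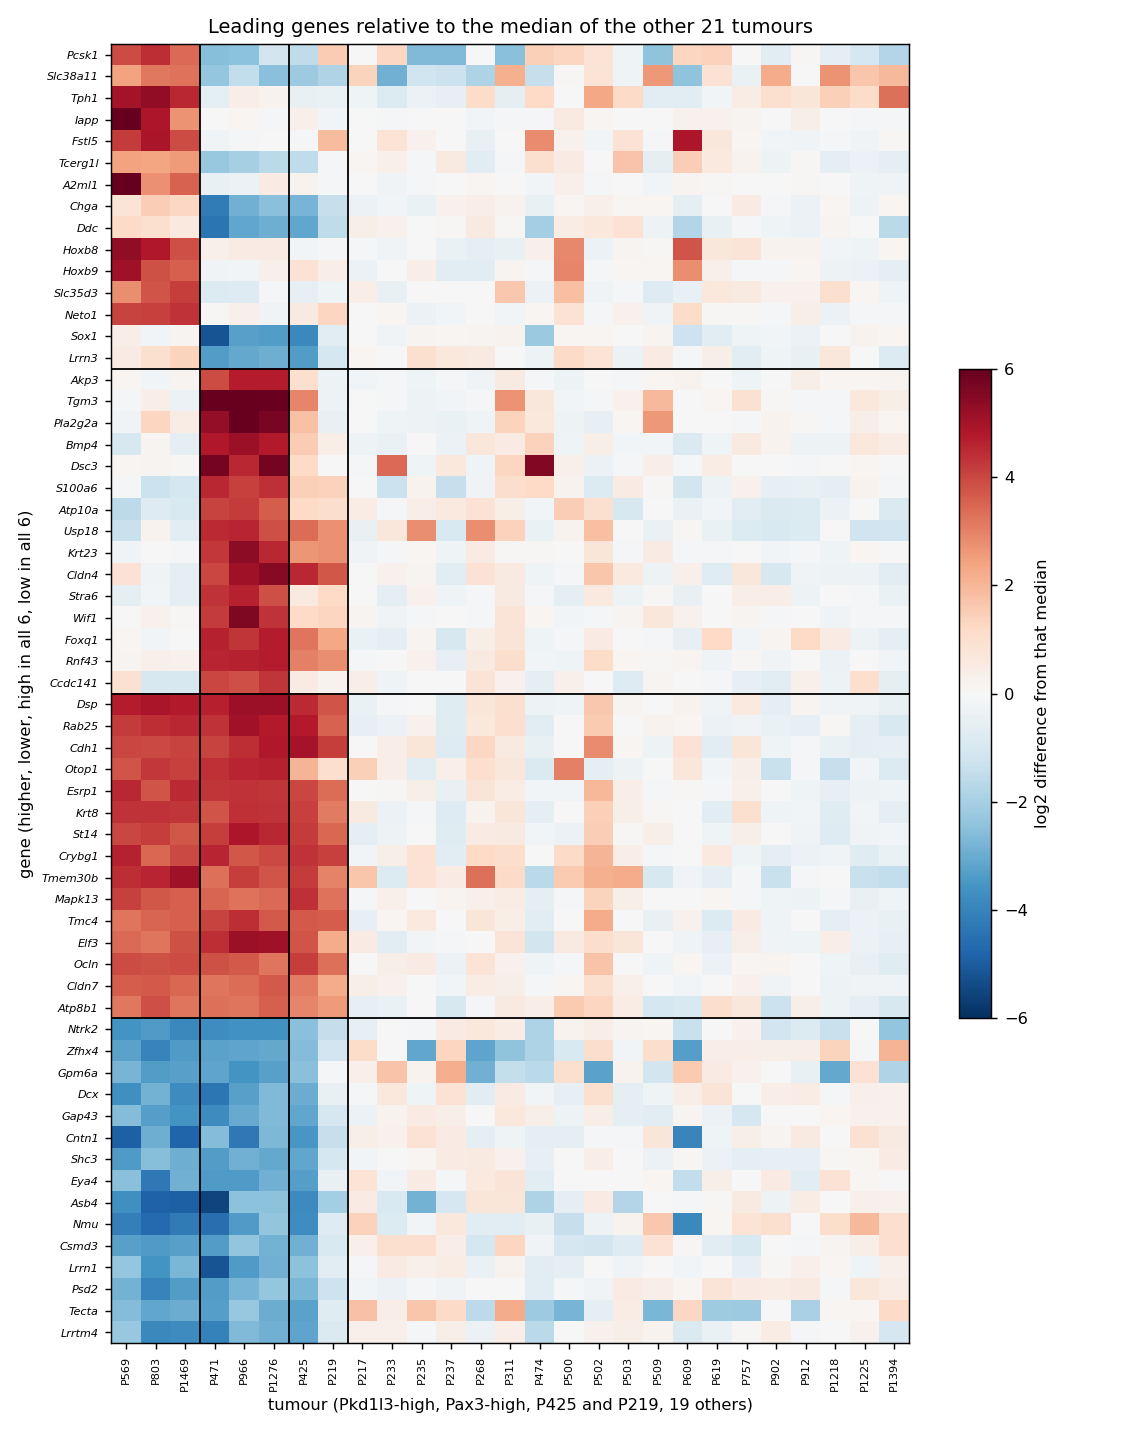
Log2 difference from the median of the other 21 tumours (colour scale) for the 15 leading genes of each kind (rows: higher and lower in the Pkd1l3-high class, high in all 6, low in all 6) in all tumours (columns: Pkd1l3-high, Pax3-high, P425 and P219, and 19 others). The lower 2 blocks show the same colour in both classes, and P425 matches them in most rows.

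The start regions of the shared high genes had letters in common that the choice of members did not use. The E-box CAGGTG, which the repressors ZEB and SNAI bind, was searched for on both strands after the shared genes had been seen, in RefSeq windows (GRCm38.p6) from 250 bases before to 50 bases after each gene start. RefSeq windows were matched for 25 of the 45 genes, and 22 of these genes (88%) held the E-box, in 27 of 32 windows (84.4%). Over all 32851 windows searched the share was 20.2%. It was 24.6% of the windows of genes higher in the Pkd1l3-high class, 26.5% for genes lower and 19.4% for genes low in all 6. Counted by gene, the shares were 31.9%, 29.7% and 35.3% (6 of 17 genes) in the same order, against 22.6% of all genes with a window. Other hexamers of the kind were rarer in the shared high windows. The E-box CAGCTG was in 9.38% of them (16.3% of all windows), CACGTG in 3.12% (7.15%) and the reversed letters GTGGAC in 3.12% (10.8%). The median G+C content was 62.7% in the shared high windows and 52.7% over all windows. A match is a description of the letters and not a binding site. The windows of the first 6 shared genes in order of margin that have a single window are shown, since they carry this shared feature, with the E-box of either strand in capitals.
Dsp (chr13:38151044-38151343, plus strand): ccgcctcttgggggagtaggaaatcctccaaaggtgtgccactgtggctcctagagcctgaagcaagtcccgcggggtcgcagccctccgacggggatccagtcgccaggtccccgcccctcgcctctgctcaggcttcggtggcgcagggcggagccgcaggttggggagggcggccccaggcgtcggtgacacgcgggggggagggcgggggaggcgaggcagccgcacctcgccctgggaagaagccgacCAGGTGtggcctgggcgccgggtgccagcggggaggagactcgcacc
Rab25 (chr3:88548230-88548529, minus strand): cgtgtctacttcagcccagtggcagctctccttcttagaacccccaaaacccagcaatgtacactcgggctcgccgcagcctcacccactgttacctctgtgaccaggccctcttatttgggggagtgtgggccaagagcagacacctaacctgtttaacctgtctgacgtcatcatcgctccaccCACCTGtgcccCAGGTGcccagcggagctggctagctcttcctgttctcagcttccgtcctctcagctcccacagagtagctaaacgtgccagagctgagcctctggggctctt
Otop1 (chr5:38277154-38277453, plus strand): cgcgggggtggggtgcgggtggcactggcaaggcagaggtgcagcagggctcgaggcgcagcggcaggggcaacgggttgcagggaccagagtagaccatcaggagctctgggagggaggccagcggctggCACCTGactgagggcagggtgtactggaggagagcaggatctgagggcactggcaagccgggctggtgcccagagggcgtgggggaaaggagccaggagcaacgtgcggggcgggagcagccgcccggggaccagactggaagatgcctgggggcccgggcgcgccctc
Krt8 (chr15:102004293-102004592, minus strand): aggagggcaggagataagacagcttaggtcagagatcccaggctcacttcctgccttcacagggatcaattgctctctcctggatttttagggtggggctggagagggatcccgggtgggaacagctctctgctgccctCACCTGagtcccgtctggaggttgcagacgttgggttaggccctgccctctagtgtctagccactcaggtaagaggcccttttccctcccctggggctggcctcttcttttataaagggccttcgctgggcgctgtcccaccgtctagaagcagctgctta
Tmem30b (chr12:73546346-73546645, minus strand): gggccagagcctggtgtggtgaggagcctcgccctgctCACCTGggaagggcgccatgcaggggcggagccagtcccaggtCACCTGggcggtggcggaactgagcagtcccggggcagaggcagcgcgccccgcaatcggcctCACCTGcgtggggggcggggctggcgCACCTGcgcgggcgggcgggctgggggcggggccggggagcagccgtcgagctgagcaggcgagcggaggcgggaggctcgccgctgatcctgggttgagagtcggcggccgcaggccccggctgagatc
Mapk13 (chr17:28769067-28769366, plus strand): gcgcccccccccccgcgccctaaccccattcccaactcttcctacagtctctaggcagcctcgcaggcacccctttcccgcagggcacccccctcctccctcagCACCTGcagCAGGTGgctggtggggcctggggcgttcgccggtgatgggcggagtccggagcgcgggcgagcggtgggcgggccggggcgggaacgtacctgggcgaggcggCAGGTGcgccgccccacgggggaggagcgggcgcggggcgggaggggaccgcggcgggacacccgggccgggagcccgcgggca
Tmem30b held the letters at 4 places, Mapk13 at 3 and Rab25 at 2, and Dsp, Otop1 and Krt8 at 1 place each. Zeb1, which encodes a repressor of epithelial genes, was at 5.98, 7.19 and 5.12 in the Pkd1l3-high tumours and 6.23, 5.83 and 5.50 in the Pax3-high tumours, against 6.33 to 8.13 (median 7.59) in the other 21. All 6 thus lay below the median of the rest, and 5 of them below the lowest other tumour, P425. Snai1 (5.03, 5.36 and 5.24 and 5.52, 6.00 and 5.81, against 4.69 to 5.54 (median 5.06)) and Snai2 (6.18, 6.64 and 6.24 and 6.77, 6.48 and 6.32, against 4.71 to 7.70 (median 6.04)) showed no such gap. The ZEB gene Zeb2 was not among the measured genes. A part of Zeb1 in the shared genes was not tested. The other motifs searched are the letters of FOXA (TGTTTAC or TATTTAC), HNF1 (GTTAAT), HNF4 (CAAAGT), CDX (TTTATG or TTTATTG), the paired box (GTCACGC or GTCATGC), the paired homeodomain motif and GRHL (AACCGGTT), none of which contains another. Among the genes lower in the Pkd1l3-high class, the paired box letters were in 2.94% of 272 windows, against 4.23% of all windows, and the CDX letters in 11% against 15.6%. In the windows of genes higher in that class the FOXA letters were in 10.3% of 390 windows, or 6.96% of 273 genes, against 6.54% of all windows and 7.35% of all genes in the table.

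Of the 27 genes low in both classes 3, Dcx, Cntn1 and Gap43, are on the list of 19 neuronal cytoskeleton and adhesion genes, and none is on the synaptic, granin or neuroendocrine factor lists. Ntrk2, the receptor gene for brain-derived neurotrophic factor, was at 5.87, 6.06 and 5.59 in the Pkd1l3-high tumours, 5.72, 5.84 and 5.85 in the Pax3-high tumours and 6.95 to 10.12 (median 9.47) in the other 21. The microtubule protein gene Dcx of migrating neurons was at 5.31, 6.17 and 5.24 and 4.67, 5.77 and 6.39, against 6.05 to 10.00 (median 9.02), and the growth cone gene Gap43 at 6.59, 5.90 and 5.63 and 5.40, 6.15 and 6.55, against 6.07 to 9.81 (median 9.19). Other genes low in all 6 included the neural adhesion gene Cntn1, the neuronal membrane glycoprotein gene Gpm6a, the adaptor gene Shc3 and the peptide gene Nmu, and, among the 15 leading ones, Zfhx4, Eya4, Asb4, Csmd3, Lrrn1, Psd2, Tecta and Lrrtm4. For Nmu the 6 were at 6.06, 5.51 and 5.90 and 5.65, 6.75 and 7.77, while the other 21 reached 12.09. Hoxb13, a homeobox gene of the prostate, was at 5.61, 6.35 and 6.83 and 4.47, 4.98 and 5.44, against 7.22 to 9.39 (median 8.96) in the other 21, so all 6 lay below every other tumour. Of the 27 shared low genes 26 were also low by 2 log2 in P425, where Hoxb13 was instead at 9.39, and 1 was in P219.

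Transcription factor genes of endoderm (Foxa2) and progenitor cells (Sox2) were also high in both classes without reaching the 2 log2 margin in all 6. Foxa2 was at 9.33, 10.11 and 9.70 in the Pkd1l3-high tumours and 8.79, 9.46 and 8.99 in the Pax3-high tumours, against 6.52 to 8.28 (median 7.26) in the other 21. For Foxa2 no other tumour reached the lowest of the 6. Sox2 was at 10.16, 10.70 and 9.55 and 11.82, 11.11 and 10.70, against 6.68 to 10.15 (median 8.27), and P1469 overlapped with the highest of the rest, P235.

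Of all lists, the granin and prohormone enzyme genes had the largest median difference in favour of the Pkd1l3-high class. Pcsk1, the prohormone convertase gene, was at 11.59, 12.08 and 11.06 in the Pkd1l3-high tumours and 5.09, 5.22 and 6.55 in the Pax3-high tumours, with 4.99 to 9.18 (median 7.65) in the other 21. The class means were 11.58 ± 0.51 and 5.62 ± 0.81 log2 (SD, n = 3 each), a difference of 5.96. Chga, the gene of chromogranin A, was at 10.89, 11.55 and 11.33 and 5.91, 7.19 and 7.57, with 7.31 to 10.56 (median 10.09) in the other 21. Of 13 measured granin and prohormone enzyme genes 9 were higher by the rule and none lower, and all 13 differences were above 0, with a median of 3.24 (all genes 0.04). The 9 were Chga, Chgb, Scg3, Scg5, Pcsk1, Cpe, Ptprn, Ptprn2 and Resp18. Cpe, the carboxypeptidase that trims hormones after the convertases, was at 11.02, 11.49 and 10.68 and 7.30, 7.84 and 7.92, with 7.22 to 11.03 (median 10.65) in the other 21. For 6 of the 9 the Pkd1l3-high mean lay within 1 log2 of the median of the other 21 and the Pax3-high mean below it, while all 3 Pkd1l3-high tumours had more Pcsk1 than any other tumour.

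Serotonin and amine genes followed, and here both kinds of position occurred. Tph1, the rate-limiting enzyme of serotonin synthesis outside the brain, was at 11.04, 11.38 and 10.56 in the Pkd1l3-high tumours and 5.51, 6.42 and 6.25 in the Pax3-high tumours, against 5.23 to 9.36 (median 6.04) in the other 21, so the Pkd1l3-high tumours stood above all others. Ddc, the decarboxylase of the next step, was at 10.98, 10.81 and 10.43 and 5.48, 6.75 and 6.94, with 6.72 to 10.72 (median 9.85) in the other 21. Gad1, which makes the transmitter GABA, was at 9.85, 9.12 and 9.52 and 5.39, 5.57 and 5.59, with 5.03 to 6.83 (median 5.66) in the other 21. The vesicular amine transporter genes Slc18a1 (8.37, 9.08 and 7.11 and 5.25, 6.60 and 6.84) and Slc18a2 (9.43, 8.82 and 6.37 and 6.02, 6.96 and 5.85) were also higher on average, by 1.96 and 1.93, but short of the rule. Th and Dbh, which make dopamine and noradrenaline, were at 6.00, 6.19 and 5.56 and 5.20, 5.20 and 5.13 in the Pkd1l3-high tumours and at 5.64, 6.09 and 6.65 and 5.07, 5.07 and 4.84 in the Pax3-high tumours, near background. In this list, which was set up after the data had been seen, 3 of 13 genes were higher by the rule and none lower. Iapp, the gene of the islet peptide amylin, was at 9.64, 8.07 and 5.96 and 3.28, 3.35 and 3.16, with 3.06 to 3.77 (median 3.25) in the other 21. It was the single peptide hormone gene of 19 that differed by the rule, and its level varied widely among the 3 Pkd1l3-high tumours.

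Of 22 synaptic vesicle and exocytosis genes 10 were higher in the Pkd1l3-high tumours, none lower, with a median difference of 2.03. Snap25, a membrane fusion protein gene, was at 9.99, 11.08 and 10.89 in the Pkd1l3-high tumours and 5.35, 7.47 and 7.51 in the Pax3-high tumours, with 8.29 to 11.27 (median 10.38) in the other 21. Syt1, the calcium sensor of release, was at 11.33, 10.09 and 11.07 and 6.18, 8.03 and 8.29, with 7.28 to 11.59 in the other 21. In both genes the Pkd1l3-high tumours lay within the range of the other 21 and the Pax3-high tumours below their median. Of 19 neuronal cytoskeleton and adhesion genes 8 were higher, none lower (Ncam2, 8.56, 8.89 and 7.79 and 4.57, 5.28 and 5.09; Elavl3, 9.46, 9.13 and 9.88 and 5.30, 6.85 and 7.27), with a median difference of 1.80, while 3 of the list were low in all 6. Nefl, a neurofilament gene, spread from 4.61 in P803 to 11.02 in P1469 and overlapped with the Pax3-high values (4.17, 4.36 and 5.11).

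Of 21 neuroendocrine transcription factor genes 3 were higher in the Pkd1l3-high tumours by the rule, none lower. St18 was at 9.05, 9.28 and 9.45 in the Pkd1l3-high tumours and 5.23, 5.72 and 6.28 in the Pax3-high tumours, with 5.39 to 9.38 (median 8.67) in the other 21. Neurog3, the factor that starts endocrine fate in pancreas and gut, was at 5.83, 10.55 and 8.83 and 5.64, 5.52 and 5.64, with 5.04 to 5.87 (median 5.43) in the other 21. It was thus high in P803 and P1469, while P569 lay within the range of the rest. Insm1 was at 8.86, 9.02 and 8.60 and 6.43, 7.01 and 7.20 (difference 1.95), and Neurod1 was near background in both classes (4.02, 4.73 and 4.49 and 4.18, 4.34 and 4.42). Sox1 was at 10.80, 10.27 and 10.57 in the Pkd1l3-high tumours and 5.22, 7.15 and 7.09 in the Pax3-high tumours, with 6.55 to 10.65 (median 10.42) in the other 21, and Pax9 at 10.36, 9.44 and 11.14 and 6.28, 7.39 and 7.97, with 6.76 to 11.40 (median 10.96). For both factors the difference lay in low values of the Pax3-high class.

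Several of the 15 leading genes higher in the Pkd1l3-high class belong to none of these lists. Slc38a11, a gene of an amino acid transporter family, was at 10.50, 11.27 and 11.36 in the Pkd1l3-high tumours and 5.76, 6.60 and 5.60 in the Pax3-high tumours, with 5.20 to 10.77 (median 8.09) in the other 21. Tcerg1l was at 10.47, 10.44 and 10.63 and 5.77, 6.05 and 6.42, with 6.54 to 9.78 (median 8.06). For these genes the Pkd1l3-high tumours lay above the median of the rest and the Pax3-high tumours below it. The follistatin-like gene Fstl5 was at 8.64, 9.32 and 8.37 and 4.21, 4.33 and 4.47, with 4.01 to 9.29 (median 4.44), where P609 reached the Pkd1l3-high level. A2ml1, a protease inhibitor gene, was at 11.29, 7.47 and 8.27 and 4.29, 4.39 and 5.21, with 4.47 to 5.02 (median 4.72), and Neto1, which encodes an auxiliary subunit of glutamate receptors, at 7.87, 7.93 and 8.18 and 3.88, 4.13 and 3.63, with 3.47 to 5.12 (median 3.83). No other tumour reached the Pkd1l3-high level of A2ml1 or Neto1. Slc35d3 (9.33, 10.30 and 10.70 and 5.72, 5.79 and 6.47) and Lrrn3 (9.07, 9.51 and 9.89 and 5.22, 5.50 and 5.63) complete the 15.

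Position relative to the other 21 was counted for all genes that differed, a count added after the data had been seen. Of the 352 genes higher in the Pkd1l3-high class, the Pkd1l3-high mean alone was within 1 log2 of the median of the other 21 for 188 and the Pax3-high mean alone for 101, and for 63 neither was. In 43 of these 63 the classes lay on opposite sides of it. Of the 307 lower genes, the Pkd1l3-high mean alone was near that median for 266 and the Pax3-high mean alone for 13, and neither for 28. The genes that differed thus mostly set the Pax3-high class apart from both the Pkd1l3-high class and the median of the rest. Of the rest, P425 lay near the Pax3-high level in the neuroendocrine lists. The granin list mean was 6.58 in P425 and 5.91 to 6.78 in the Pax3-high tumours. The synaptic list was at 6.75 and 6.31 to 7.11 in the same order. The neuronal list was at 6.58 and 6.25 to 7.09, and the factor list at 6.00 and 6.00 to 6.59. In 227 of the 352 and 167 of the 307 the lowest of the 6 values was under the median of all values.

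A run of neighbouring homeobox genes was higher in the Pkd1l3-high class. Hox genes lie in clusters and give cells their position along the body axis. Of 29 measured Hox genes 7 were higher by the rule, none lower, and all 7, Hoxb3 to Hoxb9, are neighbours in the Hoxb cluster. Hoxb9 was at 11.22, 9.98 and 9.75 in the Pkd1l3-high tumours and 5.95, 5.98 and 6.44 in the Pax3-high tumours, against 5.52 to 9.09 (median 6.15) in the other 21. Hoxb8 was at 9.14, 8.65 and 7.69 and 4.13, 4.35 and 4.34, against 3.23 to 7.61 (median 3.83). Hoxb6 was at 10.26, 9.74 and 6.65 and 4.81, 5.02 and 5.47, against 4.39 to 8.94 (median 4.93), with P1469 at least 3 log2 below its class mates. At the ends of the run, Hoxb2 (3.93, 3.87 and 3.99 and 3.30, 3.30 and 3.58, against 3.16 to 7.50 (median 3.48)) was close to background in all 6, and Hoxb13 was low in all 6. P500 and P609 were the highest of the other 21 for the 7 genes. The Pax3-high tumours lay within 1 log2 of the median of the rest throughout the run. Hoxa9 was at 8.55, 9.09 and 9.01 and 8.57, 4.99 and 9.17, with only P966 low, as it also was for Hoxa5 (4.42).

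**Figure D4:**
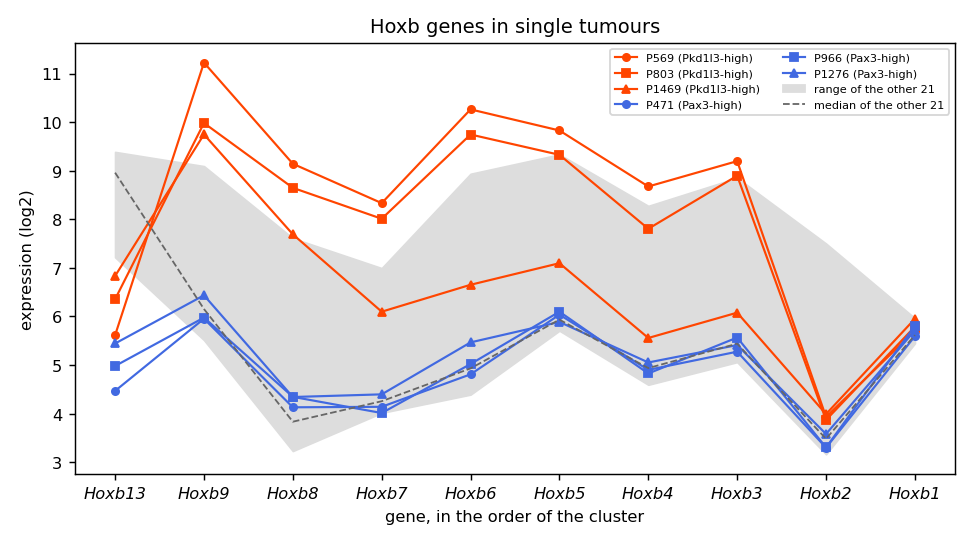
Expression (log2, vertical axis) of the Hoxb genes in the order of the cluster (horizontal axis) in single tumours of the Pkd1l3-high class (orange) and the Pax3-high class (blue), with the range (grey) and median (dashed) of the other 21. From Hoxb9 to Hoxb3 the orange lines lie above the blue ones, and P1469 is the lowest orange line there.

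Some genes of taste cells, gut and liver differed by the rule and others did not. The mean of the taste and tuft cell list, which holds Pkd1l3 itself, was 7.10 to 7.39 in the Pkd1l3-high tumours and 6.35 to 6.81 in the Pax3-high tumours. That of the gut list was 5.47 to 5.61 and 5.80 to 5.85, and that of the liver list 5.40 to 5.58 and 5.36 to 5.56. The classes overlapped for the liver list and not for the gut list. The median difference of the gut list went the other way, at 0.10 log2, with 12 genes above 0 and 7 below. Its mean includes the markers Gpa33 and Akp3, which differed by -3.71 and -4.43. For the taste and tuft cell list the gap is partly set by Pkd1l3, which chose the class and is counted in the mean. The median difference of that list was -0.04 log2, with 5 genes above 0 and 6 below. Of 11 measured taste or tuft cell genes, Pkd1l3 itself, Pkd2l1 and the carbonic anhydrase gene Car4 were higher by the rule in the Pkd1l3-high class. Car4 was at 7.98, 11.40 and 7.63 in the Pkd1l3-high tumours and 5.84, 5.64 and 6.26 in the Pax3-high tumours, with 5.66 to 8.81 (median 6.79) in the other 21, so P803 alone was above the rest. The taste-cell channel gene Trpm5 (6.09, 6.37 and 6.29 and 6.12, 6.90 and 6.81) and the tuft cell factor gene Pou2f3 (4.43, 4.58 and 4.39 and 4.01, 5.24 and 5.40) were low in both classes, and the phospholipase gene Plcb2 was at 5.61, 5.32 and 5.55 and 6.53, 7.22 and 6.67. Of 19 gut epithelium genes 2 were higher and 3 lower. Vil1, which encodes the microvillus protein villin, was at 9.24, 10.96 and 10.79 in the Pkd1l3-high tumours and 7.60, 8.15 and 7.64 in the Pax3-high tumours, against 5.01 to 6.89 (median 5.94) in the other 21, and Krt20 at 10.16, 8.37 and 10.11 and 7.65, 6.39 and 7.69, against 4.44 to 9.18 (median 4.89). For Vil1 both classes stood above every other tumour. Gpa33, Akp3 and Reg4 (4.25, 4.22 and 4.48 and 8.03, 6.76 and 6.16) made up the 3 lower genes, while the intestinal master factor gene Cdx2 (5.40, 5.25 and 5.22 and 4.99, 5.16 and 5.42) and Cdh17 (4.13, 4.16 and 4.19 and 4.23, 4.61 and 4.32) stayed at background. Of 18 liver and HNF genes 2, Ttr and Onecut1, were higher in the Pkd1l3-high class and 1, Fetub, was lower. The differences of 9 were above 0 and those of 9 below. Fetub, which encodes the related fetuin-B, was at 5.95, 4.86 and 6.99 and 8.00, 8.15 and 8.87, with 4.19 to 6.56 (median 4.69) in the other 21. Alb (4.62, 4.68 and 4.45 and 4.59, 4.58 and 5.21) and Afp (4.85, 5.16 and 5.19 and 4.97, 5.11 and 4.98) were at background in all 6. Vwf, the von Willebrand factor gene of endothelium, was at 10.89, 10.42 and 10.28 and 7.11, 7.19 and 8.59, with 5.76 to 7.67 (median 6.41). The other 7 endothelium genes, Cdh5 (7.45, 7.43 and 7.95 and 9.19, 8.52 and 8.99) among them, were all lower in the Pkd1l3-high class on average, by less than the rule.

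Many genes of the Wnt pathway were higher in the Pax3-high class. In this pathway ligands bind Frizzled receptors, beta-catenin and TCF/LEF factors switch on targets, and several targets are feedback inhibitors. Rnf43, a ubiquitin ligase that removes Frizzled receptors, was at 5.69, 5.79 and 5.76 in the Pkd1l3-high tumours and 10.06, 10.12 and 10.23 in the Pax3-high tumours, with 5.01 to 8.53 (median 5.50) in the other 21. The class means were 5.74 ± 0.05 and 10.14 ± 0.08 (SD, n = 3 each), a difference of -4.39. Of 28 genes in a Wnt list set up after the data had been seen, 13 were lower in the Pkd1l3-high class and 1 higher, with a median difference of -1.55. The secreted inhibitor gene Wif1 was at 5.92, 6.17 and 6.00 and 10.13, 11.53 and 10.24, with 5.72 to 7.18 (median 5.92) in the other 21, and Notum, which inactivates Wnt ligands, at 5.69, 5.94 and 6.04 and 8.38, 10.06 and 10.07, with 5.09 to 6.87 (median 5.50). Among targets, Axin2 was at 6.92, 7.06 and 7.08 and 9.00, 9.27 and 9.63, with 6.52 to 8.42 (median 6.74), and Nkd1 at 8.65, 7.94 and 8.21 and 10.90, 11.53 and 11.37, with 6.60 to 8.51 (median 7.48). The transcription factor gene Lef1 was at 5.48, 5.96 and 6.24 and 9.69, 9.33 and 9.04, with 5.55 to 8.78 (median 7.01), the receptor gene Fzd10 at 3.30, 4.30 and 3.44 and 5.85, 7.04 and 6.42, and the ligand gene Wnt10a at 7.15, 6.97 and 7.14 and 8.90, 10.00 and 8.77. In all of these the Pax3-high values did not overlap with the Pkd1l3-high ones, and for Rnf43, Wif1, Notum, Axin2 and Nkd1 they lay above every other tumour. Ctnnb1, the gene of beta-catenin, was at 11.46, 11.41 and 11.51 and 11.62, 11.77 and 11.80. The exception was Sfrp5, a secreted Wnt antagonist gene, at 9.76, 9.56 and 6.92 in the Pkd1l3-high tumours and 5.62, 5.59 and 5.15 in the Pax3-high tumours, with 4.96 to 6.22 (median 5.46) in the other 21. Lgr5 did not separate the classes (4.81, 8.06 and 6.39 and 8.61, 7.52 and 6.82).

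Genes of BMP and TGF-beta signalling were higher in the Pax3-high class too, both ligands and the inhibitors and targets that the pathway induces. Bmp4 was at 4.93, 6.06 and 5.30 in the Pkd1l3-high tumours and averaged 10.78 ± 0.19 (SD, n = 3) in the Pax3-high tumours, the lowest of which was at 10.65, with 5.01 to 7.40 (median 5.88) in the other 21. The ligand genes Bmp2 (5.35, 4.91 and 5.10 and 8.12, 7.75 and 8.12) and Bmp7 (6.57, 6.86 and 8.29 and 9.52, 10.48 and 9.72) went the same way. The inhibitor genes Smad6 (5.03, 5.21 and 5.00 and 7.65, 7.81 and 7.17) and Smad7 (6.42, 6.59 and 7.12 and 10.12, 9.59 and 9.61) and the targets Id1 (6.78, 7.14 and 6.48 and 8.53, 9.06 and 9.74) and Id3 (5.54, 6.05 and 6.00 and 8.29, 8.49 and 9.02) did so as well. Of 18 genes of this list, also set up after the data had been seen, 8 were lower in the Pkd1l3-high class and none higher, with a median difference of -1.36. Tgfb2 differed in position, at 5.89, 6.18 and 5.86 in the Pkd1l3-high tumours and 9.26, 9.81 and 8.69 in the Pax3-high tumours, with 7.37 to 10.51 (median 9.06) in the other 21, so it was the Pkd1l3-high tumours that lay below the rest.

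Some squamous and basal genes were high in the Pax3-high class and others were not. Tgm3, a transglutaminase of cornifying epithelium, showed the largest difference of all genes, at 5.77, 6.27 and 5.52 in the Pkd1l3-high tumours and 12.01, 12.37 and 11.81 in the Pax3-high tumours, against 5.55 to 8.78 (median 5.86) in the other 21. The desmosomal cadherin gene Dsc3 was at 4.89, 4.92 and 4.82 and 10.50, 9.28 and 10.50, with 4.41 to 10.30 (median 4.76), where P474 reached the Pax3-high level. Of 21 squamous and cornified envelope genes, a list set up after the data had been seen, 8 were lower in the Pkd1l3-high class and none higher (Asprv1, 6.14, 5.72 and 6.09 and 9.31, 9.34 and 10.77; S100a14, 5.93, 6.11 and 6.20 and 9.90, 9.57 and 8.99), but the median difference was -0.26. Leaving out 1 tumour at a time moved this median between -0.58 (without P966) and -0.04 (without P1276), with -0.13 without P1469 and -0.47 without P471. Krt6a (4.10, 3.98 and 3.66 and 3.45, 3.71 and 4.75), Krt13 and involucrin (Ivl, 5.36, 5.42 and 5.26 and 5.03, 5.36 and 5.55) were at background. Of 9 basal genes Itgb4 (6.20, 6.07 and 6.40 and 9.32, 9.73 and 9.93) and Lamb3 (5.71, 5.45 and 5.81 and 8.92, 8.89 and 9.38), which attach epithelium to its basement membrane, were lower in the Pkd1l3-high class. The basal regulator gene Trp63 (6.01, 5.39 and 5.62 and 5.20, 5.49 and 5.42) and Krt14 (5.13, 5.30 and 4.93 and 5.42, 5.41 and 6.51) were not. The tight junction gene Cldn4 averaged 5.96 ± 0.77 in the Pkd1l3-high tumours and 10.78 ± 0.76 in the Pax3-high tumours (SD, n = 3 each), where it was at 9.92 to 11.40, with 4.97 to 10.48 (median 5.94) in the other 21, and Grhl3 at 6.17, 6.52 and 6.26 and 8.70, 9.61 and 9.33, with 5.58 to 6.29 (median 6.03). In contrast with Grhl2, which both classes shared, Grhl3 was high in the Pax3-high class and nowhere else.

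Further genes that led the same direction were Pla2g2a, a secreted phospholipase gene (4.79, 6.28 and 5.44 and 10.27, 11.90 and 10.69, with 4.51 to 7.61 (median 4.99) in the other 21), the calcium-binding protein gene S100a6 (7.16, 5.96 and 6.18 and 11.76, 11.36 and 11.62), the flippase gene Atp10a (5.37, 6.19 and 6.02 and 10.99, 11.15 and 10.60), the keratin gene Krt23 (4.39, 4.63 and 4.51 and 8.86, 9.99 and 9.16), the retinol transporter gene Stra6 (5.64, 6.06 and 5.63 and 10.58, 10.85 and 10.09), Ccdc141 (6.94, 5.05 and 5.06 and 10.03, 9.86 and 10.32) and the forkhead gene Foxq1 (5.81, 5.54 and 5.71 and 10.33, 9.99 and 10.43). Of 21 Pax and neural crest genes 2 were higher in the Pkd1l3-high class and 3, with Pax3 counted, were lower. Sox9 was at 6.55, 5.90 and 6.83 and 9.93, 9.68 and 9.43, with 6.21 to 9.90 (median 6.89) in the other 21, and Dach1 at 6.85, 6.60 and 5.75 and 8.96, 8.87 and 7.75, with 7.52 to 9.70 (median 8.76). The melanocyte and glial genes Mitf (6.30, 6.80 and 6.44 and 6.19, 7.32 and 6.25) and Sox10 (5.89, 5.91 and 5.95 and 5.89, 6.08 and 6.01) and the muscle-related Pax7 (5.56, 6.43 and 6.32 and 6.01, 5.69 and 6.56) did not accompany Pax3.

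**Figure D5:**
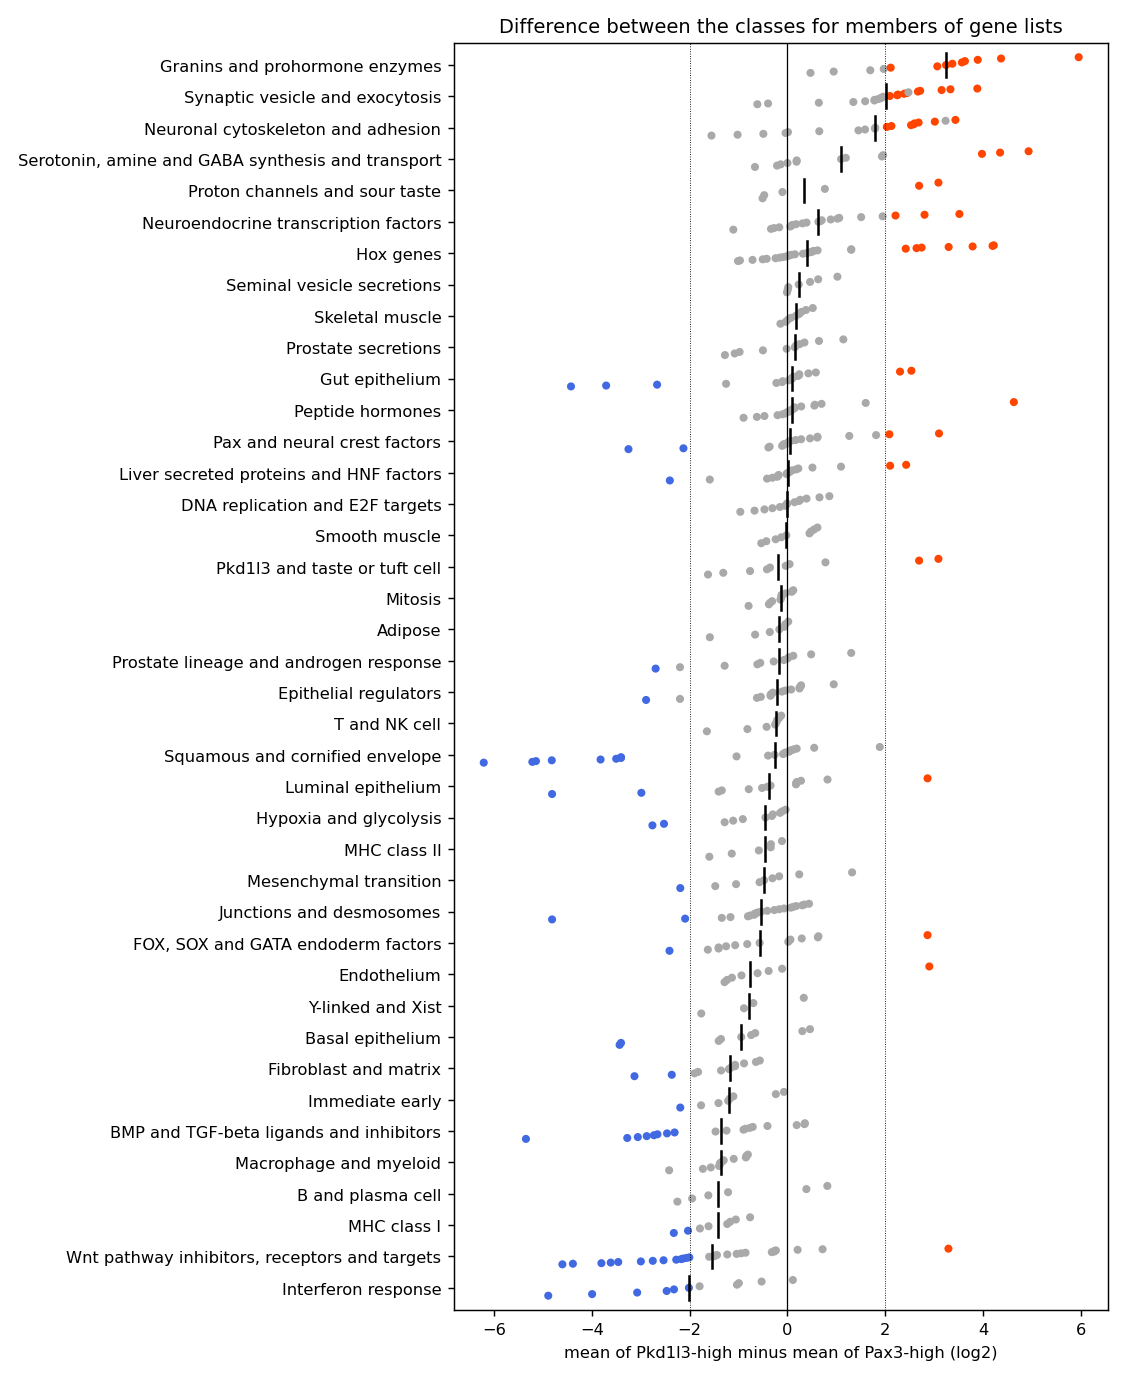
Difference of class means (Pkd1l3-high minus Pax3-high, log2, horizontal axis) for the members of each gene list (rows), with points for single genes and black bars for list medians; Pkd1l3 and Pax3 are left out. Orange and blue points differed by the rule of size and grey points did not; dotted lines mark 2 log2. Granin genes lie to the right and interferon and Wnt genes to the left.

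Several interferon response genes and a few antigen presentation and stromal genes were higher in the Pax3-high class by the rule, while no gene of the macrophage, T and NK cell, B and plasma cell or MHC class II lists was. Usp18, an interferon-induced protease gene, was at 5.79, 7.33 and 6.51 in the Pkd1l3-high tumours and 11.62, 11.70 and 11.01 in the Pax3-high tumours, with 5.93 to 10.50 (median 7.13) in the other 21. Of 11 interferon genes 6 were lower in the Pkd1l3-high class and none higher, with a median difference of -2.02 (Oas1g, 3.94, 4.45 and 4.63 and 9.68, 7.84 and 7.48; Mx2, 4.24, 5.06 and 3.96 and 9.03, 6.43 and 5.20). Of 8 MHC class I genes 2 were lower, the peptide transporter gene Tap1 (8.22, 8.11 and 7.64 and 10.31, 10.53 and 10.11) and Nlrc5, with a median of -1.42. The interferon list mean was 5.59 to 6.01 in the Pkd1l3-high tumours, 7.35 to 8.76 in the Pax3-high tumours and 5.20 to 7.82 in the other 21. The MHC class I list was at 7.76 to 8.01, 9.16 to 9.72 and 7.02 to 9.36 in the same order. P425 (7.82 and 9.31) and P219 (7.61 and 9.36) lay within the Pax3-high range for both lists. None of the 12 macrophage genes met the rule, but all 12 differences were below 0. The mean level of this list was 5.87 to 7.40 over the Pkd1l3-high tumours, 7.35 to 8.51 over the Pax3-high tumours and 6.62 to 8.28 over the other 21. The B and plasma cell list was at 5.24 to 6.23, 5.18 to 7.71 and 5.00 to 6.04 in the same order, and the T and NK cell list at 5.34 to 5.41, 5.23 to 6.62 and 5.06 to 6.12. The MHC class II list was at 5.98 to 7.05, 6.27 to 8.02 and 5.50 to 7.35, and all 6 of its differences were below 0, with a median of -0.46. For the B and plasma cell and the T and NK cell lists P1276 lay below all 3 Pkd1l3-high tumours. Of the 6 tumours, P471 had the highest means of the macrophage, T and NK cell and B and plasma cell lists. P966 had that of the MHC class II list (8.02, with P471 at 7.33). Ptprc, a surface phosphatase gene of all leukocytes, was at 6.78, 5.11 and 5.66 in the Pkd1l3-high tumours and 10.00, 8.67 and 6.14 in the Pax3-high tumours. P1276 had Ptprc at 6.14, within the Pkd1l3-high range, and Usp18 at 11.01, and its Oas1g (7.48) and Tap1 (10.11) were above all 3 Pkd1l3-high tumours as well. The fibroblast list was at 6.81 to 7.69 in the Pkd1l3-high tumours and 8.55 to 9.00 in the Pax3-high tumours, with Pdgfra (6.71, 5.14 and 5.40 and 9.15, 8.19 and 9.29) and Postn (7.56, 6.59 and 7.32 and 10.36, 9.66 and 8.56) lower by the rule, and 6.70 to 8.49 in the other 21. Beyond these values the part of immune and stromal cells in the difference was not tested.

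Stress genes were higher on average in the Pax3-high class than in the Pkd1l3-high class, few of them by the rule, and proliferation genes did not differ by it. Of 11 hypoxia and glycolysis genes 2 were lower in the Pkd1l3-high class, Adm (5.01, 4.94 and 5.81 and 6.66, 8.52 and 8.86) and the hexokinase gene Hk2 (7.11, 7.03 and 7.70 and 9.35, 9.65 and 10.41), and of 8 immediate early genes Atf3 was (8.34, 7.21 and 7.44 and 9.02, 10.12 and 10.43), although all members of both lists had differences below 0. The median difference was -0.45 for the hypoxia list, or -0.91 when the row of largest SD stood for each gene, and -1.20 for the immediate early list. The mean of the hypoxia list was 8.12 to 8.94 in the Pkd1l3-high tumours and 9.13 to 9.67 in the Pax3-high tumours, and that of the immediate early list 7.32 to 8.34 and 8.75 to 8.91, so that the classes did not overlap for either. The other 21 lay at 7.40 to 9.03 and 6.85 to 8.00. For both lists the Pax3-high tumours lay above all of them. The Pkd1l3-high tumours lay within that range, except for P569 in the immediate early list (8.34). No mitosis gene of 11 and no DNA replication gene of 14 differed by the rule in either direction. Mki67, the proliferation marker Ki-67, was at 11.19, 10.86 and 10.87 in the Pkd1l3-high tumours and 11.17, 10.99 and 10.89 in the Pax3-high tumours, with 9.98 to 11.61 (median 11.20) in the other 21. Prostate secretory genes were near background in both classes with single exceptions. The probasin gene Pbsn was at 5.51, 3.45 and 3.57 and 3.56, 3.46 and 3.58, and Msmb at 4.76, 4.24 and 4.85 and 4.32, 4.72 and 4.37, with 3.98 to 11.62 (median 4.69) in the other 21, where P425 and P219 were high. None of the 11 secretory genes and 1 of 12 prostate lineage genes, the peptidase gene Mme (5.47, 5.81 and 4.74 and 8.17, 8.00 and 7.94), differed by the rule. The epithelial programme of the 6 tumours was thus not accompanied by the secretory genes that P425 and P219 had.

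Single tumours departed from their class mates in a limited number of genes. A gene was counted where a tumour lay at least 2 log2 above or below both mates and these lay within 1 log2 of each other, a count added after the data had been seen. This held for 56 genes in P569 (0.252% of all), 70 in P803 (0.316%) and 52 in P1469 (0.234%) of the Pkd1l3-high class. In the Pax3-high class it held for 58 in P471 (0.261%), 17 in P966 (0.0766%) and 53 in P1276 (0.239%). P569 was higher than its mates in the seminal vesicle secretion gene Svs5 (11.28, 7.38 and 6.91) and in the immunoglobulin joining chain gene Jchain (7.92, 4.09 and 3.86), P803 was lower in Ahsg, and P1469 was lower in Hoxb3 (9.20, 8.90 and 6.08) and Hoxb6. P966 was lower in Hoxa5 and Hoxa9. In the same class P471 was higher in Bpifa2 (12.33, 5.08 and 4.53). P1276 was lower in Cpa3 (8.51, 8.85 and 3.67) and Mcpt4 (8.07, 7.23 and 3.16). The mean of the 7 seminal vesicle genes was 4.52 to 5.96 in the Pkd1l3-high tumours and 4.60 to 4.77 in the Pax3-high tumours, with 3.99 to 6.36 in the other 21.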

How the data were processed

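Expression was measured in 27 prostate tumours with 1 array each. The authors' deposited table holds log2 expression values, 41345 rows by 27 arrays between 1.68 and 14.5. The labels name a biotin label from a GeneChip kit, and each array holds 1 colour. Partek was the tool, per the submitters' processing notes. Neither its version nor its background correction or normalization is given in the sources used here. The genome build of the platform is not given either. Coordinates, start windows and gene order are those of RefSeq on GRCm38.p6, matched by symbol. No detection calls come with the log2 values, and precision is limited by the number of arrays.

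Rows were named through the platform's probe table. Rows with several symbols (1814) or none here (16010) were set aside, and a gene with several rows was represented by its row of highest mean. This left 22180 genes, 22139 of them in the RefSeq table of GRCm38.p6. All columns matched a sample title. The classes were found from the Pkd1l3 and Pax3 values, so no test was run: differences of class means, their SD and overlap are given as descriptions. SDs rest on 3 tumours. Work was done in Python 3.11.15 with pandas 2.3.3 and numpy 2.4.6.

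The members and the gene lists were chosen with earlier results of these data known. A first 35 lists held 470 genes, 438 of them measured, and 5 lists added after seeing the values held 90, 87 of them measured. The E-box and GRHL motifs and the comparison hexamers were also added after. Genes named were taken from the markers, the 15 leading genes of each kind (without clone symbols) and, per list, up to 4 members with the largest difference and up to 3 with the highest mean, of which not all are printed; other genes named were chosen after their values were seen. Alternatives covered normalization, the row kept per gene, a filter, the size of the difference, the gap between classes and leaving out tumours.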

Additional observations from a re-analysis of the deposited data

How the results depend on the processing

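The counts depended mainly on the size of difference that was asked for. With 1 log2 in place of 2, 1055 genes were higher and 1091 lower in the Pkd1l3-high class, 151 were high in all 6 and 147 low in all 6. With 3 log2 these counts were 115, 91, 18 and 2. Leaving out 1 of the 6 tumours at a time gave 325 to 405 genes higher, 301 to 402 lower, 46 to 55 shared high and 27 to 34 shared low, while 88.1% to 96.0% of the higher and 87.0% to 94.8% of the lower genes remained. Leaving out a tumour can only add to the shared genes. List medians moved by more than their spread between tumours 28 times, all but 1 of them with a tumour left out, and by less 372 times. Quantile normalization gave 364, 289, 45 and 25, and centring each array on its median 342, 317, 43 and 28. With the mean over the rows of a gene, Foxq1 differed by -2.97 and Tmc4 by -0.25. No named gene changed the sign of a difference that met the rule. Among rows with several symbols 6 were higher and 18 lower, and among unnamed rows 30 and 49. Values near background limit the differences of genes with a class at that level. No paired analysis was possible because the labels place all tumours in a single group with no shared replicate numbers.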
